A study of Homo sapiens with 3 samples.

Results

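The regions described here are stretches of the genome where TEAD was called in 786-O cells next to, but not on, a called H3K27ac region. They were chosen by position alone: a TEAD peak interval on chromosomes 1 to 22 or X that shared no base with an H3K27ac peak interval, but had one within 5000 bp of either end. The rule found 3327 of 35241 TEAD regions, or 9.44% (95% interval 9.14 to 9.75%). They made up 29.9% (29.04 to 30.74%) of the 11132 TEAD regions without H3K27ac overlap, called unmarked below. The other 7805 unmarked regions lay farther than 5 kb from H3K27ac and are called distant. Of the 24109 marked regions, which overlap H3K27ac, 19492 had their TEAD summit inside the acetylated interval and 4617 had it outside.

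TEAD proteins bind DNA but activate transcription poorly on their own. They recruit the co-activators YAP and TAZ, which the kinases of the Hippo pathway keep out of the nucleus, and much of their binding is at distal enhancers. H3K27ac is the acetyl mark that histone acetyltransferases of the CBP family place on nucleosomes at active enhancers and promoters. A bound factor usually sits in a stretch with few nucleosomes, so the mark is found on the nucleosomes beside the binding site rather than under it. 786-O is a clear cell renal carcinoma line without working VHL, the ubiquitin ligase subunit that marks the HIF alpha proteins for degradation.

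The study holds 3 libraries of this line, all grown in serum without a stated treatment: a TEAD immunoprecipitation, an H3K27ac immunoprecipitation and an input control. Peak names in the TEAD list carry TEF1 and TEF3, older names of TEAD proteins, and the labels name no single family member. The input was not analysed here on its own. With 1 library per target no value below has a replicate check, and regions of 1 library are not replicates. No p-value is given for that reason. Intervals on shares are 95% Wilson intervals, those on folds of single regions come from exact 95% Poisson intervals on the read pileup, and those on medians come from the ranked values. They cover counting error only.

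The fold is the authors' enrichment at the peak summit over the local background. The summit pileup and that background, both in reads, were recovered from the authors' fold and p-value. The 3327 regions ranged from 2.60- to 59.9-fold, with a median of 6.53 (quartiles 5.22 and 9.19). Their median summit pileup was 21 reads over a background of 2.10 reads, and their median width was 382 bp. All H3K27ac regions had a median summit pileup of 24 reads over a background of 2.82 reads. Unmarked means only that no H3K27ac peak was called; H3K27ac reads at TEAD regions without a peak were not analysed here.

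The gap between these regions and H3K27ac was strongly uneven. Its median was 1123 bp, with quartiles of 175 and 2779.5 bp. A gap under 250 bp was found for 1000 regions, 30.1% of the 3327, and 598 of these had a gap under 100 bp. The next 250 bp held 268 regions, and 326 lay 500 to 1000 bp away. Each further kilobase held 532, 465, 390 and 346 regions in turn. Gaps under 250 bp are shorter than the narrowest H3K27ac interval, 299 bp. How finely the ends of called intervals place the mark was not tested. The nearest acetylated region was on the lower-coordinate side in 50.8% (49.1 to 52.5%), so no lean to either side was detectable.

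**Figure D1:**
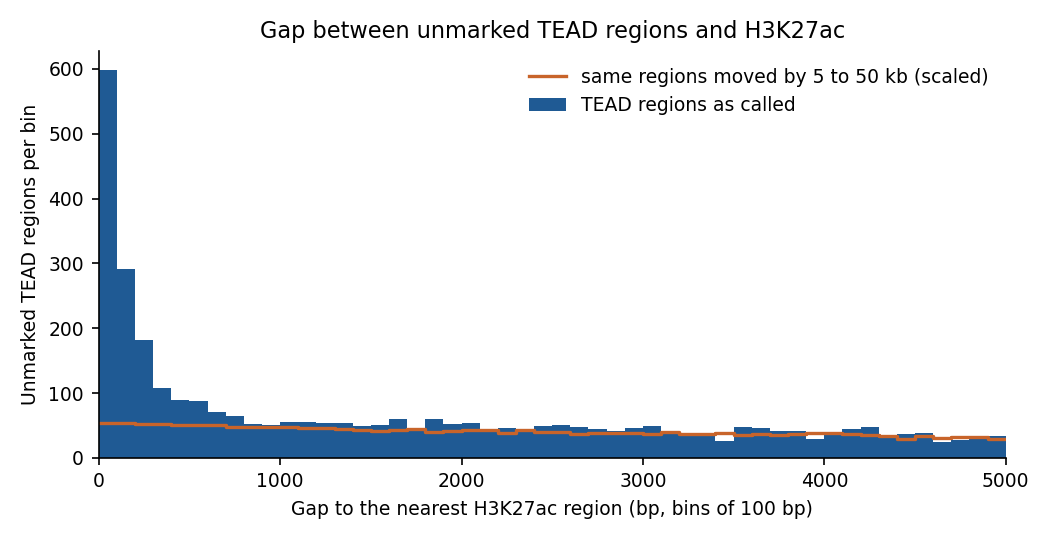
Unmarked TEAD regions per 100 bp of gap to the nearest H3K27ac region (bars), and the same regions after moves of 5 to 50 kb, scaled to the same number (line). The bar for gaps under 100 bp holds 598 regions, and beyond about 1000 bp the bars lie close to the line.

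Local moves served as the control for what the surroundings hold. Each unmarked TEAD region was shifted with its width by 5 to 50 kb, in steps of 5 kb, to both sides. Copies that landed on H3K27ac (5.27%) were dropped. Of the 210689 copies left, 18.4% lay within 5 kb of H3K27ac against 29.9% of the called regions, a ratio of 1.63 (1.58 to 1.67, from the counting error of the called share).

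This excess was concentrated at the shortest gaps. Under 250 bp the called share was 8.98% (8.47 to 9.53%) and the moved share 1.20%, a ratio of 7.47 (7.04 to 7.92). Under 100 bp the ratio was 11.1 (10.2 to 11.96). At 250 to 500 bp it was 2.08 (1.85 to 2.35) and at 500 to 1000 bp 1.33 (1.19 to 1.48).

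Farther out the called regions were close to their moved copies. At 1 to 5 kb the shares were 15.6% and 13.8%, a ratio of 1.13 (1.08 to 1.18). At 3 to 5 kb the interval of the ratio, 0.98 to 1.12, included 1. Scaled to 11132 regions, the moved copies fell short of the called ones by 1281 regions within 5 kb, and 866 of those had a gap under 250 bp.

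The choice of control changed the size of the ratio within 5 kb, under 250 bp and at 1 to 5 kb, and its direction at 1 to 5 kb. When marked TEAD regions were moved as well, 30.0% of the copies off H3K27ac lay within 5 kb, and the ratio became 0.996 (0.968 to 1.02). Copies of marked regions start on H3K27ac, and 35.9% of them landed within 5 kb of it, against 14.6% for copies of distant regions. Under this control the ratio was 4.54 in place of 7.47 at gaps under 250 bp, and 0.68 in place of 1.13 at 1 to 5 kb. Moved copies of the 3327 regions themselves lay within 5 kb of H3K27ac in 27.8% of cases. The rule itself places H3K27ac near these regions and not near distant ones.

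**Figure D2:**
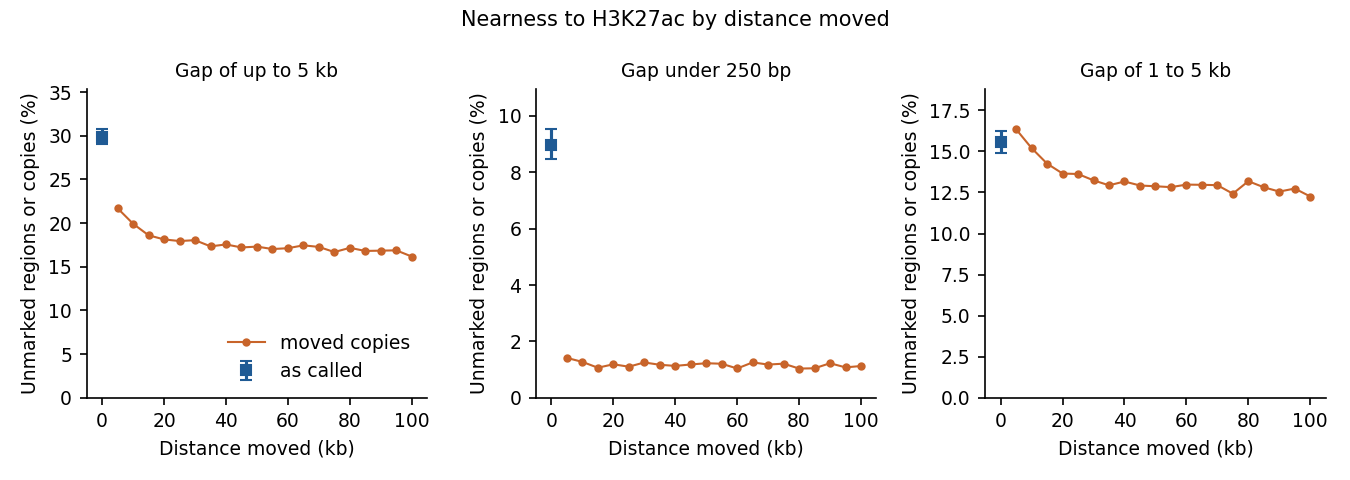
Share of unmarked TEAD regions (square, at 0 kb, with 95% Wilson interval) and of their moved copies off H3K27ac (circles) with a gap of up to 5 kb, under 250 bp or 1 to 5 kb, against the distance moved in kb. Copies moved by 5 kb reached 1.42% at gaps under 250 bp against 8.98% for the called regions, and 16.3% against 15.6% at 1 to 5 kb.

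Copies moved farther had gaps of 1 to 5 kb less often, but gaps under 250 bp showed no steady fall beyond the shortest move. Copies moved by 5 kb lay within 250 bp of H3K27ac in 1.42% of cases. For moves of 10 to 100 kb this share varied between 1.04% and 1.28%, and it was 1.13% at 100 kb. At 1 to 5 kb copies moved by only 5 kb reached 16.3%, above the called share of 15.6%, and copies moved by 100 kb reached 12.3%. The gradient from short to long gaps was also followed by chromosome. The ratio for gaps under 250 bp was above 1 on 23 of 23 chromosomes lowest on chromosome 19 (4.69) and highest on chromosome X (12.4). For gaps of 1 to 5 kb it was above 1 on 17 of 23, from 0.80 on chromosome 18 to 1.34 on chromosome X. Within 5 kb lay 23.3% (20.7 to 26.1%) of unmarked regions on chromosome 2, the lowest share, and 35.3% (32.5 to 38.3%) on chromosome 1, the highest.

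TEAD enrichment beside called H3K27ac regions was lower than on them and slightly lower than far from them. The median fold of 6.53 (6.44 to 6.66) compares with 6.96 (6.91 to 7.05) at distant regions, 7.15 at marked regions with the summit inside H3K27ac and 8.42 at those with the summit outside. Mean log2 fold was 2.86 ± 0.68 (SD over 3327 regions) against 2.95 ± 0.70 (SD over 7805) at distant regions, a difference of -0.09 that is small beside the spread between regions. A fold of at least 20 was reached by 140 regions, 4.21% (3.58 to 4.94%), against 4.92% of distant regions and 9.26% of all TEAD regions. Widths were 382 bp against 394 bp at distant regions and 509 bp at marked regions with the summit inside. A wider TEAD interval reaches H3K27ac more easily and then counts as marked. The part of this in the contrasts with marked regions was not tested.

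The recovered background differed between these classes, and its part in the fold difference was examined by quintile. Its median was 2.10 reads beside H3K27ac, 1.96 at distant regions and 2.81 in both marked classes. The summit pileup, which does not divide by background, had a median of 21 reads beside H3K27ac and 20 at distant regions. Within quintiles of background the mean log2 difference from distant regions was 0.04 in the lowest and lay between -0.10 and -0.06 in the other 4. The share of unmarked regions within 5 kb was 15.0% (13.6 to 16.6%) in the lowest quintile of background and 37.7% (35.7 to 39.7%) in the highest. For gaps under 250 bp these shares were 4.18% and 13.7%. Moved copies were not matched for background, and the part of background in the ratios to them was not tested.

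Weak unmarked regions were found beside H3K27ac somewhat more often than strong ones. In the decile of lowest TEAD fold 34.6% (31.9 to 37.5%) lay within 5 kb, and in the highest 25.4% (22.9 to 28.04%). For gaps under 250 bp the shares were 11.8% (10.00 to 13.8%) and 7.002% (5.65 to 8.65%), and for 1 to 5 kb 16.0% (13.9 to 18.2%) and 14.2% (12.3 to 16.4%), with intervals that overlap. The median background was 2.81 reads in the lowest decile and 1.89 in the highest, and its part in these shares was not tested. Within the 3327 regions the fold hardly varied with the gap: the median was 6.47 under 250 bp and between 6.26 and 6.89 in the 6 wider bins.

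**Figure D3:**
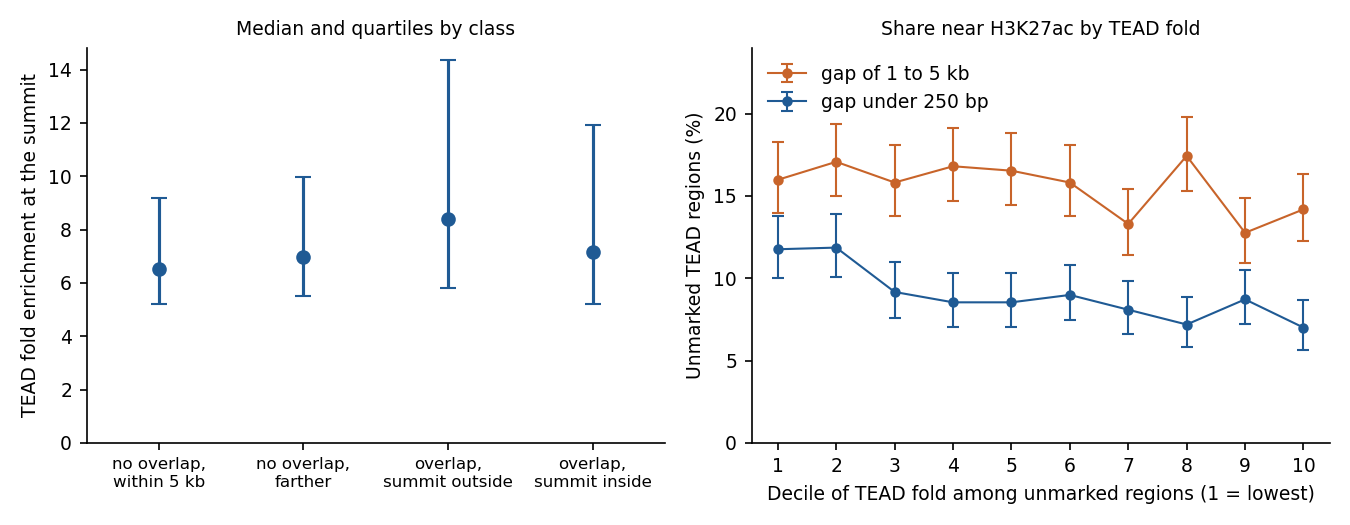
Left, median TEAD fold at the summit with quartiles (bars) for the 4 classes of TEAD regions; right, the share of unmarked TEAD regions with a gap under 250 bp or of 1 to 5 kb in each decile of TEAD fold, with 95% Wilson intervals. The class without overlap but within 5 kb has the lowest median, 6.53, and the share at short gaps is 11.8% in the lowest and 7.002% in the highest decile.

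The neighbouring H3K27ac regions were weaker and narrower than H3K27ac regions in general, above all at gaps under 500 bp. The 3327 TEAD regions had 3145 different nearest H3K27ac regions, with a median fold of 5.49 (5.35 to 5.65) and a median width of 690 bp (661 to 715 bp). All 52667 H3K27ac regions had medians of 6.54 and 950 bp, and those without any TEAD overlap 5.31 and 659 bp. A fold of at least 10 was reached by 20.2% (18.8 to 21.6%) of the neighbours, against 30.5% of all H3K27ac regions.

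At gaps under 250 bp the nearest acetylated region had a median fold of 4.90 and a median width of 519 bp, and at 250 to 500 bp 4.87 and 567.5 bp. At 2 to 3 kb these were 6.47 and 897 bp. The regions nearest to moved copies showed no such gradient, with median folds of 6.42 to 6.72 and median widths of 888 to 988 bp over the 7 bins. At short gaps the called TEAD regions had fainter neighbours than their moved copies. A wider H3K27ac interval beside a TEAD region reaches it more easily, and that TEAD region then counts as marked. Copies that landed on H3K27ac were dropped too. The part of the rule in this contrast was not tested.

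These close neighbours stood nearer to the limit of detection than H3K27ac regions in general, although most had a −log10 q above 5. A −log10 q under 5 was found for 25.4% (22.8 to 28.2%) of the 993 H3K27ac regions nearest to a TEAD region at under 250 bp, against 15.0% of all H3K27ac regions. Their median summit pileup was 16 reads, against 24 for all H3K27ac regions. H3K27ac regions without TEAD overlap, as most of these neighbours are, came closer, with 21.9% under 5 and a median pileup of 18 reads. For neighbours at 1000 bp or more the share under 5 was 15.2% (13.6 to 17.03%) and the median pileup 23 reads. With only H3K27ac peaks of −log10 q of at least 5, the ratio to moved copies at gaps under 250 bp was 6.53.

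**Figure D4:**
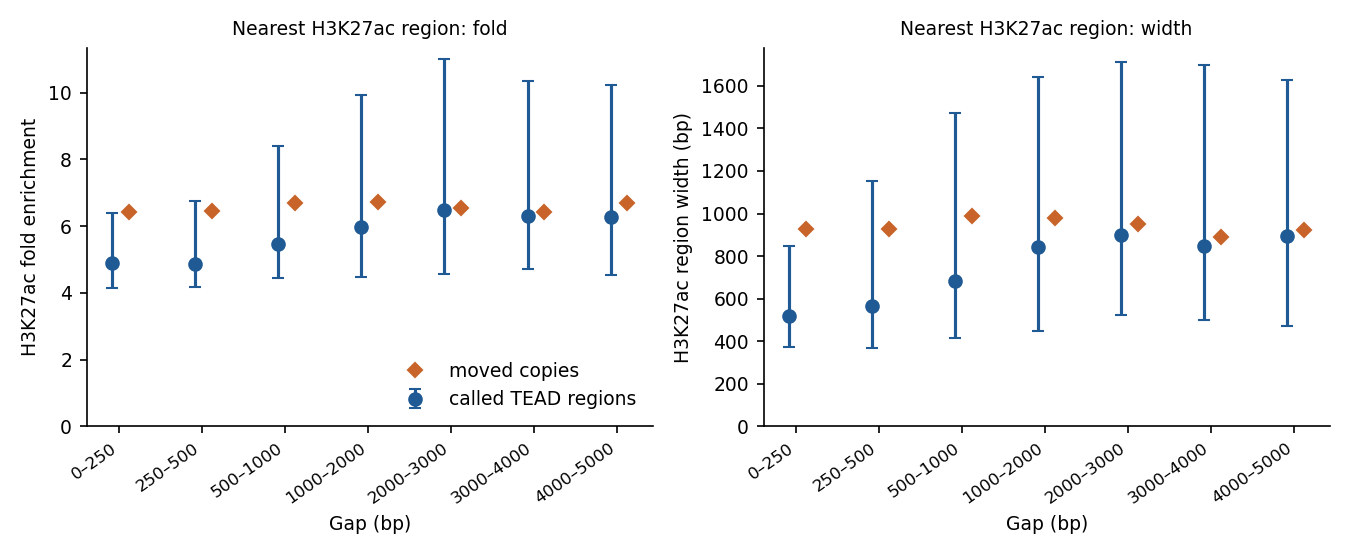
Median fold (left) and width in bp (right) of the nearest H3K27ac region by gap in bp, with quartiles (bars), for called TEAD regions (circles) and as medians for moved copies (diamonds). For called regions the median fold is 4.90 at gaps under 250 bp and 6.47 at 2 to 3 kb, while moved copies stay between 6.42 and 6.72.

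The acetylated summit showed no lean toward the TEAD region as a whole. It lay on the side of the interval's midpoint that faced the TEAD region in 50.4% (48.7 to 52.1%) of cases. Under 250 bp this share was 54.7% (51.6 to 57.8%), and for neighbours at least 1000 bp wide it was 47.0% (44.1 to 49.8%). The TEAD summit faced the H3K27ac region in 50.4% (48.7 to 52.1%) as well. From summit to summit the median distance was 1979 bp. At gaps under 250 bp it was 539.5 bp (quartiles 437 and 704 bp).

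The acetylated neighbour usually had no TEAD region of its own, above all when it was close. Of the 3145 neighbours 34.3% (32.7 to 36.02%) overlapped a TEAD region, against 41.7% of all H3K27ac regions. All H3K27ac regions, weighted to the neighbours' widths, would give 35.8%, which lies inside the interval of the neighbours. By gap the share differed widely: 14.5% (12.45 to 16.8%) under 250 bp, 24.3% (19.5 to 29.7%) at 250 to 500 bp and 42.3% (37.1 to 47.8%) at 500 to 1000 bp. In moved copies it was 42.6% under 250 bp and 45.1% at 250 to 500 bp. Neighbours of called regions were narrower than those of the copies at these gaps, with median widths of 519 and 929 bp under 250 bp. All H3K27ac regions weighted to the widths of the called regions' neighbours would give 29.3% under 250 bp and 32.6% at 250 to 500 bp. The called shares at these short gaps were below these values too. At 1000 bp or more the called share was 45.1%, above the 39.4% from the same weighting. It was not steadily above the moved copies there. In bins of 1 kb from 1 to 5 kb the called shares were 41.5 to 49.5% and the moved shares 42.4 to 45.1%. The near match to the width weighting over all neighbours thus joins a share below that weighting at short gaps and one above it at long gaps. Copies may land on ground that another TEAD region holds, which called regions cannot, and the part of this in the difference from the copies was not tested.

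**Figure D5:**
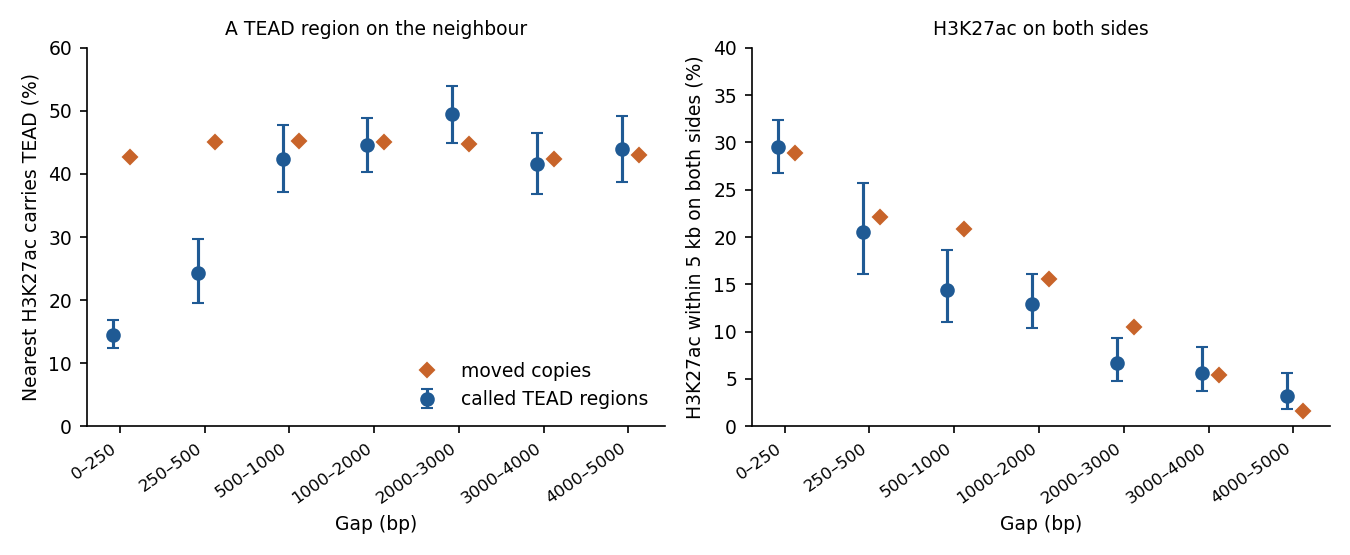
Share of TEAD regions whose nearest H3K27ac region carries a TEAD region (left) and share with H3K27ac within 5 kb on both sides (right), by gap in bp, with 95% Wilson intervals, for called TEAD regions (circles) and moved copies (diamonds). The left share is 14.5% for called regions and 42.6% for copies at gaps under 250 bp, and the right shares there are 29.5% and 28.8%.

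Where the neighbour did carry TEAD, the TEAD region on the mark was usually the stronger of the pair. This held for 669 of 1129 such pairs, 59.3% (56.4 to 62.1%). The median fold was 6.59 beside the mark and 7.99 on it, taking the strongest where the neighbour held several. In the 1011 pairs with exactly 1 TEAD region on the neighbour the region beside the mark was weaker in 58.6% (55.5 to 61.6%), with a median log2 ratio of -0.24 (-0.34 to -0.16). Median summit pileups over all pairs were 21 and 28 reads, and backgrounds 2.10 and 2.81 reads. The summits of a pair lay a median of 2961 bp apart. Marked regions had higher folds as a class as well, with medians of 7.15 (summit inside) and 8.42 (summit outside) against 6.53. The share that pairs drawn without regard to position would give was not computed.

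TEAD regions beside H3K27ac had other TEAD regions nearby about as often as marked ones with the summit inside, and more often than the other classes. Another TEAD region lay within 5 kb of 51.1% (49.4 to 52.8%), against 50.4% (49.7 to 51.1%) of marked regions with the summit inside, 37.8% of those with it outside and 10.8% (10.2 to 11.5%) of distant regions. The nearest such region was marked with its summit inside in 54.6% of these 1699 cases and with its summit outside in 24.1%. Distant regions have no H3K27ac within 5 kb, so the rule itself limits how many marked TEAD regions can lie that close to them. It therefore sets part of the contrast with distant regions. The nearest TEAD region belonged to the 3327 regions themselves in 18.5% (16.7 to 20.4%) and was distant in 2.83%. These classes are 9.44% and 22.1% of all TEAD regions. A TEAD region this close shares most of the same H3K27ac surroundings, so the rule sets part of these shares too.

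A minority lay between acetylated regions. H3K27ac was present within 5 kb on both sides of 530 regions, 15.9% (14.7 to 17.2%), against 12.4% of the moved copies within 5 kb. Under 250 bp the shares were 29.5% (26.8 to 32.4%) and 28.8%, and at 500 to 1000 bp 14.4% (11.02 to 18.6%) and 20.9%, so the higher total goes with the larger number of short gaps. The flanking H3K27ac regions of these 530 were a median of 2715 bp apart, and 128 of them lay in an interval of under 1000 bp. In 82 the gap was under 250 bp on both sides. Their median TEAD fold of 6.31 (6.12 to 6.53) was close to the 6.62 (6.45 to 6.76) of regions with H3K27ac on a single side.

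Seen from the acetylated side, 1.69% (1.42 to 2.005%) of the 7578 intervals of 300 to 1000 bp between consecutive H3K27ac regions held an unmarked TEAD region. The share was 2.93% of intervals of 1 to 2 kb, 3.53% of those of 2 to 5 kb and 6.76% (6.10 to 7.47%) of those of 5 to 10 kb. Longer intervals offer more room, and no expected share was computed for them. Counting all H3K27ac regions within 5 kb, 2135 of the 3327 TEAD regions had exactly 1, 787 had 2, 281 had 3 and 124 had 4 or more.

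Membership in large clusters of acetylation was described by joining neighbouring H3K27ac regions. They were joined over gaps of up to 2.5 times the 5 kb limit, and the 863 of 22587 domains with the highest summed signal are called large. The span of a large domain took in 128 of the 3327 regions, 3.85% (3.25 to 4.56%), against 23.9% of marked regions with the summit inside and 8.40% of those with it outside. Of distant regions 0.04% overlapped a large domain. Every marked region lies in some domain by definition, so the rule sets part of that contrast. Of the 3327 regions 943, or 28.3% (26.8 to 29.9%), overlapped the span of any domain. The nearest H3K27ac region belonged to a large domain for 6.16% (5.39 to 7.03%), and to one for 6.71% of moved copies, while 16.0% of all H3K27ac regions were in large domains. It formed a domain of its own for 36.8% (35.2 to 38.5%), against 36.6% for moved copies and 22.2% of all H3K27ac regions. Both shares of the moved copies lay inside the intervals of the called regions.

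Single regions show how strong TEAD could be beside faint acetylation. The 10 of highest fold had 109 to 203 reads at the summit over a background of 1.297 to 2.83. Their nearest H3K27ac regions were 316 to 964 bp wide and 3.53- to 7.93-fold, 9 of 10 under the median of all H3K27ac regions, and 7 carried no TEAD region. Gaps were under 250 bp for 4 and over 1000 bp for 6. The 3327 regions as a whole had similar surroundings. Their neighbours had a median fold of 5.49, against 6.54 for all H3K27ac regions, and the nearest one carried TEAD for 33.9%. The gap was under 250 bp for 30.1% of the 3327 and 1000 bp or more for 52.1%.

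Chromosome 20 held the strongest, from 43326281 to 43326918, with 172 reads and a fold of 59.9 (51.4 to 69.5). Its nearest H3K27ac region was 3581 bp away at 6.40-fold, and another lay 4780 bp away on the other side. The second, on chromosome 1 from 115857272 to 115857954, reached 56.9-fold (48.8 to 66.0) only 41 bp from an H3K27ac region of 3.53-fold and 15 reads. The summits of 174 TEAD reads and 15 H3K27ac reads were 504 bp apart.

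Other strong regions differed in how close the mark came. On chromosome 14 the region from 81608174 to 81608858 (50.9-fold) lay 133 bp from an H3K27ac region of 964 bp. On chromosome 4 the region from 184344238 to 184344885 (49.98-fold, 41.3 to 59.9) had H3K27ac on both sides, 254 and 188 bp away. The nearer of these reached 4.49-fold with 10 reads. The region on chromosome 19 from 35451162 to 35451909 (52.6-fold) had its nearest H3K27ac at 2750 bp, and the next on the other side was 32761 bp away.

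The remaining 5 were on chromosome 8 from 134420821 (53.3-fold) and from 26471274 (50.5-fold), chromosome 14 from 54573502 (49.9-fold), chromosome 1 from 18184437 (49.4-fold) and chromosome 18 from 475068 (47.9-fold). The counting intervals of these 10 overlap, which leaves them without a ranking. Among the 100 unmarked TEAD regions of highest fold, 31 lay within 5 kb of H3K27ac, a share of 31.0% (22.8 to 40.6%) that overlaps the 29.9% of all unmarked regions.

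Beside the 5 strongest acetylated neighbours the TEAD fold ranged widely, from 4.51 to 24.5. The strongest neighbour, an H3K27ac region of 4601 bp on chromosome 1 from 182990676 to 182995276, reached 38.2-fold and held 2 TEAD regions. The TEAD region 1263 bp from it had a fold of 10.95 (7.64 to 15.3). The neighbour of second rank, on chromosome 2 from 43452406 to 43455326, reached 35.1-fold beside a TEAD region of 4.55-fold (2.58 to 7.55). A region of 1099 bp on chromosome 20 from 810127 to 811225 was the strongest of the 5, at 24.5-fold (18.8 to 31.4), 2643 bp from an H3K27ac region of 35.1-fold that carried no TEAD. The other 2 lay on chromosome 15 from 73929985 (4.51-fold) and chromosome 7 from 16456501 (13.02-fold).

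The most crowded surroundings held 7 H3K27ac regions within 5 kb. They belonged to a region on chromosome 5 from 135374240 to 135374740 (12.4-fold), with gaps of 213 and 282 bp to its sides, and to one on chromosome 3 from 16522358 to 16522642 (4.22-fold). Regions on chromosome 12 from 107792765, chromosome 11 from 65271578 and chromosome 8 from 131265257 followed with 6 each and folds of 12.8, 7.60 and 6.37. All 5 had H3K27ac on both sides.

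Few acetylated regions were nearest to several TEAD regions. Of the 3145 neighbours 2972 were nearest to exactly 1, 165 to 2 and 8 to 3 or more, and 84 had TEAD regions on both of their sides. The most shared, on chromosome 4 from 169552411 to 169553158 at 9.79-fold, was nearest to 4 regions at gaps of 415 to 4455 bp with TEAD folds of 6.53 to 20.4, and it carried a TEAD region itself. The next 4 were nearest to 3 regions each. They lay on chromosome 1 from 202250719 and from 158014882, chromosome 6 from 16335205 and chromosome 4 from 169802233, with H3K27ac folds of 3.74 to 4.22.

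Values just inside and just outside the rule's limits are given as a description. The 598 regions with a gap under 100 bp had a median fold of 6.64 and a width of 389 bp. The 1129 TEAD regions that overlapped a single H3K27ac region by 1 to 100 bp, just outside the rule, had 6.53 and 405 bp. At the far limit, 78 regions within 250 bp below it had a median fold of 7.73 and a width of 416.5 bp. The 84 within 250 bp beyond it had 6.62 and 391.5 bp. The smallest gap was 0 bp, where intervals abut. The strongest of these was on chromosome 7 from 98462987 to 98463534 at 32.9-fold (26.7 to 40.2), followed by chromosome 1 from 16114522 (19.9-fold) and chromosome 2 from 103130455 (17.1-fold). The largest gap was 4998 bp, on chromosome 7 from 53444788 (11.3-fold) and chromosome 5 from 173185617 (7.35-fold), followed by 4992 bp on chromosome 6 from 164042021 (7.57-fold).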

How the data were processed

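The authors deposited 1 narrowPeak list per immunoprecipitation. Tools named in the submitters' processing notes are fastp, Bowtie2 2.4.5 and MACS2, and the build is hg19. Those notes state no parameters. Each list holds the authors' fold (a ratio at the summit), −log10 p and −log10 q, a whole-number score that was not used, and the summit offset. Peaks on chromosome Y were left out. Coordinates are hg19, counted from 1.

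Pileup k and background b solve fold = (k + 1)/(b + 1) and the Poisson tail p, and met the deposited −log10 p within 0.002 for 100% of peaks. Gaps were measured between interval ends and equalled those of bedtools 2.31.1 for 35241 of 35241 TEAD regions. Analyses used Python 3.11.15, numpy, pandas and scipy and were tested on simulated data. Moved copies had to stay within the span of the peaks of their chromosome. Ties for the nearest H3K27ac went to the higher fold.

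Regions named are the 10 of highest TEAD fold, the 5 with the strongest nearest H3K27ac, the 5 with most H3K27ac within 5 kb, the 5 most shared neighbours and the 3 smallest and 3 largest gaps. The members and these rules were chosen with earlier results of these data known. Alternatives are in the closing section. The genome sequence and gene annotation of hg19 were not used here, so no gene, motif or sequence is given.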

Additional observations from a re-analysis of the deposited data

How the results depend on the processing

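Of 45 values under 10 alternatives, 15 stayed within the counting interval of the reported value, 29 moved outside it and the ratio to moved copies fell below 1 once, at 0.996 with all TEAD regions moved. Moves of 5 to 20 kb gave a ratio of 1.53 and moves of 55 to 100 kb 1.76. TEAD peaks of −log10 q of at least 5 gave a median TEAD fold of 6.79 and 32.03% of neighbours with TEAD. H3K27ac peaks of −log10 q of at least 5 gave 27.6% of unmarked regions within 5 kb, 13.1% with H3K27ac on both sides, a median neighbour fold of 6.25 and 39.7% of neighbours with TEAD. Using the TEAD summit in place of the interval admits regions that overlap H3K27ac with a flank. It gave 7875 regions, 50.003% of unmarked ones, a ratio of 2.26, a median TEAD fold of 7.40, both sides in 40.1%, a neighbour fold of 5.74 and neighbours with TEAD in 71.9%. Asking for 50 bp of overlap gave 33.0%, a ratio of 1.73, both sides in 19.3% and neighbours with TEAD in 43.02%. A limit of 2 kb gave 19.1%, a ratio of 2.24, a TEAD fold of 6.43, both sides in 13.1%, a neighbour fold of 5.16 and neighbours with TEAD in 27.8%. A limit of 10 kb gave 42.3%, a ratio of 1.35, both sides in 22.4%, a neighbour fold of 5.76 and neighbours with TEAD in 37.2%. Without chromosomes 13 and X all 6 values stayed within their intervals. No paired analysis was possible because each group has 1 library.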
